A study of Homo sapiens with 6 samples.

Results

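The apolipoprotein L genes APOL1, APOL2, APOL3, APOL4 and APOL6 are described here across RNA-seq libraries of T47D, an established line of human breast cancer cells of luminal type that carry the estrogen receptor. They are 5 of the 27968 genes in the deposited gene tables, matched by their symbols, and 15 annotated RefSeq transcripts belong to them. They were chosen with their values in this comparison known, so their levels and fold changes are given as a description and carry no p-value. The cells were transfected either with an siRNA that targets what the labels call HOTAIR-N (HOTAIR is a long noncoding RNA) or with a control siRNA, in medium with serum, and total RNA was taken 48 hours later. Each group held 3 libraries from separate transfections of this single cell line, made after removal of ribosomal RNA. The comparison asks what the HOTAIR-N siRNA changes in the transcriptome.

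APOL proteins are membrane-active proteins of amphipathic helices, and their genes lie close together on chromosome 22 after gene duplication. APOL1 is the member with a signal peptide. It circulates on lipoprotein particles that kill trypanosomes, and it forms ion channels in membranes. The other members stay inside the cell. Several members, APOL1 and APOL3 above all, are known to be induced by interferons and by tumor necrosis factor, through transcription factors that include IRF1, STAT2 and IRF9.

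Members of such a duplicated family can share reads, so their coding sequences were compared first, from GENCODE v29 transcripts of GRCh38 matched to the annotated RefSeq transcripts. APOL1 and APOL2 were identical at 81.2% of 1011 aligned coding bases and APOL3 and APOL4 at 77% of 1053. The other 8 pairs lay between 59.2% and 70.6%. The longest identical coding run of each of these 2 closest pairs is shown in capitals, with 20 bases on either side in lower case, to show how far the coding sequences of 2 members can coincide without a mismatch. The APOL1 stretch joins exon 6 (chr22:36261674-36261722, plus strand) to exon 7 (chr22:36265151-36265171). The APOL2 stretch joins exon 4 (chr22:36231340-36231388, minus strand) to exon 5 (chr22:36228260-36228280). The APOL3 stretch lies in exon 3 (chr22:36141708-36141773, minus strand) and that of APOL4 in exon 5 (chr22:36191574-36191639, minus strand). Exons are numbered within the transcript compared for each gene, that with the longest coding sequence among those matched. These match NM_145343 of APOL1, NM_030882 of APOL2, NM_145640 of APOL3, NM_145660 of APOL4 and NM_030641 of APOL6. NM_145343 and NM_145640 had only 20.77 and 27.82 expected counts over the HOTAIR-N siRNA libraries, so they are not the main forms here.
APOL1: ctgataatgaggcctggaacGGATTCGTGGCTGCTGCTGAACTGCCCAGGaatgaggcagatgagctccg
APOL2: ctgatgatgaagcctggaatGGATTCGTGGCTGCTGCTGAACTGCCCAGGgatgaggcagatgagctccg
APOL3: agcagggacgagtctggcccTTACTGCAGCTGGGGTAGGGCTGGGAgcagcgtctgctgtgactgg
APOL4: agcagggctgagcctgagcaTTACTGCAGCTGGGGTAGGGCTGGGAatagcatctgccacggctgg

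The run shared by APOL1 and APOL2 is 30 bases long and that shared by APOL3 and APOL4 is 26 bases long. Over the whole length of the transcripts compared, between 0% and 0.56% of the stretches of 50 bases were also found in another member. Identical stretches longer than these coding runs thus exist elsewhere in the transcripts of APOL1, APOL2 and APOL3. The expected counts of all 5 members were whole numbers in all 6 libraries (to within 0.005), as were those of 78.1% of tested genes. RSEM splits a read that maps to several genes into fractions, and no such fraction is visible in the gene counts of the APOL family. No member overlaps another RefSeq gene, on either strand.

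The libraries summed to between 31777001 and 36707169 expected counts, and 1 CPM equalled 32.9 to 36.4 counts. HOTAIR had 5.65 ± 0.0242 CPM with the HOTAIR-N siRNA and 16.3 ± 0.301 CPM with the control siRNA (SD, n = 3 each), which is 34.7% of control (log2 fold change -1.53 with SE 0.07, and an adjusted p of 2.1e-09 in edgeR's quasi-likelihood fit). HOTAIR-N siRNA replicate 3 and control siRNA replicate 2 stood apart from the other libraries of their groups. Their counts differed from those of each group mate by a chi-square per degree of freedom of 7 to 8.81, against 2.36 and 2.17 for the remaining pairs. Luminal markers summed to 8126.2 to 9002.3 TPM with the HOTAIR-N siRNA and 8910.9 to 10139.6 TPM with the control siRNA. All 5 endothelial markers (PECAM1, VWF, CDH5, KDR and TEK), 4 of 5 haematopoietic and 3 of 5 fibroblast markers had under 10 counts in every library. Of the 8 luminal markers, 1 rose, 5 fell and 2 were not called, a share of calls near the 71.1% of all tested genes called in either direction. Of all 14919 tested genes, 5407 rose and 5198 fell. CDH1 was the luminal marker that rose, by 1.86-fold, and KRT8 and KRT19 were those not called. The estrogen receptor gene ESR1 fell the furthest of the luminal markers, to 32.1% of control. It had 93 ± 6.53 CPM with the HOTAIR-N siRNA and 289.5 ± 9.73 CPM with the control siRNA (SD, n = 3 each). Haematopoietic markers summed to 3.67 to 4.35 TPM with the HOTAIR-N siRNA and 2.75 to 2.83 TPM with the control siRNA, and the 1 tested, CD68, rose. Fibroblast markers summed to 7.7 to 8.95 TPM with the HOTAIR-N siRNA and 8.85 to 10.2 TPM with the control siRNA, and both tested, COL1A1 and COL3A1, fell. The part of these marker differences in the APOL results was not tested.

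Of the 5 APOL genes, 4 were expressed highly enough to enter the fit across all genes, and each of these was higher in every HOTAIR-N siRNA library than in any control library. No call is given for these 4. Of all 14919 genes tested, 36.2% were called higher at an adjusted p under 0.05. Over all tested genes, 37.5% had groups that did not overlap in this direction. Because the members were chosen on this contrast, nothing is read from their lack of overlap. In bulk RNA, more RNA per cell and more cells that express a gene cannot be told apart.

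**Figure D1:**
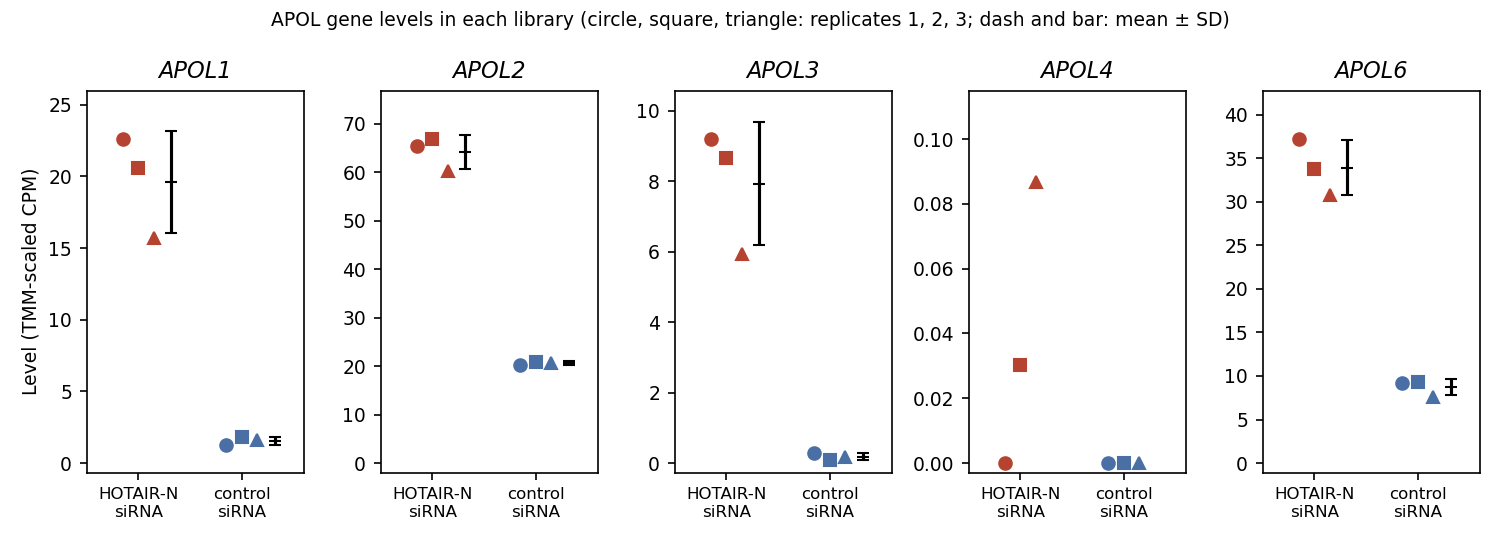
Level of each APOL gene in TMM-scaled CPM (vertical axis, a separate linear scale per gene) in the 3 HOTAIR-N siRNA libraries (red, left) and the 3 control siRNA libraries (blue, right), with circles, squares and triangles for replicates 1, 2 and 3 and the dash with its bar for the mean ± SD (not drawn for APOL4). The groups do not overlap for APOL1, APOL2, APOL3 and APOL6, in each of which HOTAIR-N siRNA replicate 3 is the lowest of its group, and APOL4 stays below 0.1 CPM.

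APOL1, the secreted trypanolytic member, had 822, 677 and 541 expected counts in HOTAIR-N siRNA replicates 1, 2 and 3 and 45, 60 and 56 in control siRNA replicates 1, 2 and 3. Its level was 19.6 ± 3.55 CPM with the HOTAIR-N siRNA and 1.55 ± 0.267 CPM with the control siRNA (SD, n = 3 each), a 12.7-fold difference (log2 fold change 3.66, SE 0.16). The lowest HOTAIR-N siRNA library, replicate 3 at 15.7 CPM, was still far above the highest control library at 1.79 CPM. Of all tested genes, 0.275% had a larger log2 fold change.

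APOL3 acts inside the cell. In human cells treated with interferon-gamma it dissolves the membranes of cytosolic bacteria after guanylate-binding proteins have opened their outer coat. It had 335, 284 and 205 expected counts in the HOTAIR-N siRNA libraries and 10, 3 and 6 in the control libraries. The log2 fold change of 5.42 (SE 0.28), or 42.7-fold, was the 5th highest among all tested genes. It rests on 19 counts in all over the 3 control libraries, against 824 over the HOTAIR-N siRNA libraries. The level in the HOTAIR-N siRNA libraries was 9.19, 8.64 and 5.94 CPM, below that of the other 3 tested members. APOL3 thus had the largest fold change and the lowest count of the 4.

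APOL2, an intracellular member whose role is less well known, was the most abundant of the family in every library. It had 2382, 2196 and 2079 expected counts with the HOTAIR-N siRNA and 721, 701 and 723 with the control siRNA. The level was 64.1 ± 3.47 CPM with the HOTAIR-N siRNA and 20.6 ± 0.352 CPM with the control siRNA (SD, n = 3 each), or 3.11-fold (log2 fold change 1.64, SE 0.06). This was the smallest fold change among the 4.

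APOL6 promotes cell death when overexpressed in human cells and carries a BH3-like motif. It had 1354, 1112 and 1064 expected counts with the HOTAIR-N siRNA and 327, 313 and 266 with the control siRNA. The level was 33.9 ± 3.17 CPM with the HOTAIR-N siRNA and 8.7 ± 0.941 CPM with the control siRNA (SD, n = 3 each), or 3.9-fold (log2 fold change 1.96, SE 0.09). The single annotated APOL6 transcript is 10139 bases long, which yields many reads per molecule, so that its level per length was low.

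APOL4 was not detectable at this depth in the control libraries. It had 0, 1 and 3 expected counts with the HOTAIR-N siRNA and 0 in each control library, where a count of 0 allows up to 0.0841, 0.0893 and 0.0859 CPM (3 counts, for counting error only) in replicates 1, 2 and 3. No fold change is given. APOL5, the family member that lies between APOL6 and RBFOX2 and is not among the genes chosen, had 1 count in HOTAIR-N siRNA replicate 2 and 0 in the other libraries. APOLD1, a relative on chromosome 12 known as an early response gene of endothelial cells, was lower with the HOTAIR-N siRNA. It had 18, 19 and 28 expected counts in those libraries and 45, 41 and 33 in the control libraries (log2 fold change -0.86 with SE 0.23, and an adjusted p of 0.0054 in edgeR's quasi-likelihood fit).

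HOTAIR-N siRNA replicate 3, which stood apart across the transcriptome, had the lowest level in its group for each of the 4 tested members. Without it the log2 fold changes were 3.79 for APOL1, 1.68 for APOL2, 5.58 for APOL3 and 2.02 for APOL6. Without both this library and control siRNA replicate 2, they were 3.9, 1.67, 5.26 and 2.06 for the same genes.

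Compared per length in the deposited TPM, the order of the members differed between the siRNAs. With the HOTAIR-N siRNA, APOL2 led at 50.6 ± 2.57 TPM, followed by APOL1 at 13.6 ± 2.42, APOL3 at 7.15 ± 1.53 and APOL6 at 6.37 ± 0.57 TPM (SD, n = 3). APOL3 and APOL6 overlapped there, at 8.19, 7.86 and 5.39 TPM for APOL3 and 6.95, 6.36 and 5.81 TPM for APOL6. With the control siRNA, APOL2 was at 15.9 ± 0.2 TPM, APOL6 at 1.6 ± 0.182, APOL1 at 1.06 ± 0.177 and APOL3 at 0.16 ± 0.0854 TPM (SD, n = 3), and no neighbours in this order overlapped. APOL6 thus stood above APOL1 in every control library and below it in every HOTAIR-N siRNA library. The ratio of APOL1 to APOL6 was 1.88 to 2.26 with the HOTAIR-N siRNA and 0.512 to 0.784 with the control siRNA.

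The summed level of the 5 genes was 69.9 to 82 TPM with the HOTAIR-N siRNA and 18.5 to 19.1 TPM with the control siRNA. APOL2 held 65.2 ± 2.91% of that sum with the HOTAIR-N siRNA and 84.9 ± 0.797% with the control siRNA (SD, n = 3 each). APOL1 held 17.4 ± 1.71% against 5.65 ± 0.866% with the control siRNA, and APOL3 9.12 ± 1.23% against 0.859 ± 0.468%. The share of APOL6 was 8.2 ± 0.341% with the HOTAIR-N siRNA and 8.54 ± 0.912% with the control siRNA, a difference smaller than the spread between control libraries. The family was thus larger and less dominated by APOL2 after the HOTAIR-N siRNA, while APOL6 kept about the same part of it.

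**Figure D2:**
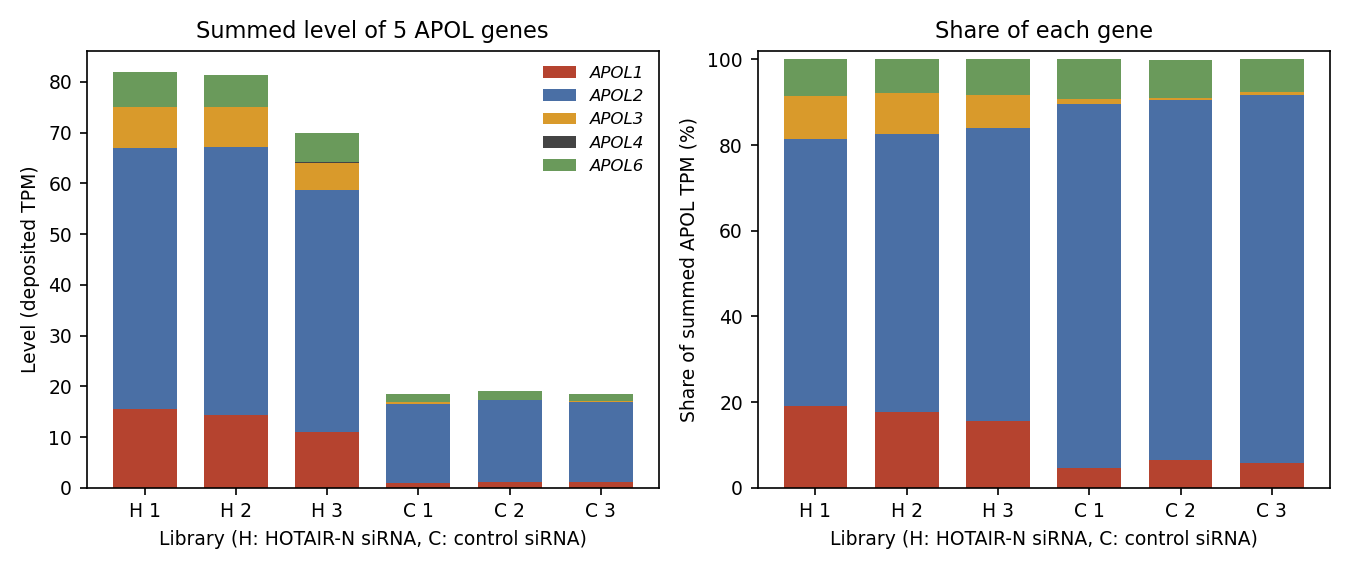
Deposited TPM of the 5 APOL genes stacked per library (left, vertical axis in TPM from 0) and the same values as a percent of their sum (right), with libraries on the horizontal axis (H for HOTAIR-N siRNA, C for control siRNA, replicates 1 to 3). The sums are 69.9 to 82 TPM with the HOTAIR-N siRNA and 18.5 to 19.1 TPM with the control siRNA, and APOL2 makes up a smaller percent in the HOTAIR-N siRNA libraries.

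The transcripts of a gene share most of their exons, so RSEM estimates how its reads divide among them, and these splits are less certain than the gene counts. Of the 15 annotated transcripts, 3 had no counts in any library (NM_145641 and NM_145642 of APOL3 and NM_030643 of APOL4). Among the 9 high enough for the fit over all transcripts, 8 had all HOTAIR-N siRNA libraries above all control libraries, beside 25.2% of the 32285 transcripts tested, and nothing is read from that count either.

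For APOL1, most reads went to NM_003661. It took 77.61%, 86.34% and 84.64% of the gene's transcripts in the HOTAIR-N siRNA libraries and 81.01%, 100% and 100% in the control libraries. NM_001136540 and NM_001136541 had 28.69 to 84.91 and 34.32 to 98.5 expected counts in the HOTAIR-N siRNA libraries. In the control libraries NM_001136540 had 0 counts and NM_001136541 had 8.41 counts in replicate 1 alone. Summed over the libraries of a group, NM_001136540 had 146.53 of 2040 APOL1 counts with the HOTAIR-N siRNA and 0 of 161 with the control siRNA, and NM_001136541 had 191.71 and 8.41. A difference in the shares of these forms was not tested.

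For APOL3, NM_145639 took 70.38%, 87.37% and 58.78% of the gene's transcripts in the HOTAIR-N siRNA libraries, NM_030644 took 8.94% to 17.34% and NM_014349 took 3.68% to 12.61%. NM_145640 was estimated at 27.82 counts in replicate 3 and at 0 in the other HOTAIR-N siRNA libraries. In the control libraries the 10, 3 and 6 reads were each given to a single and different transcript, and these shares carry no information about the forms in use. For APOL2, NM_030882 took 98.67% to 100% of the transcripts with the HOTAIR-N siRNA and 97.86% to 100% with the control siRNA. The main form of each detected gene was thus the same in the HOTAIR-N siRNA libraries throughout.

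**Figure D3:**
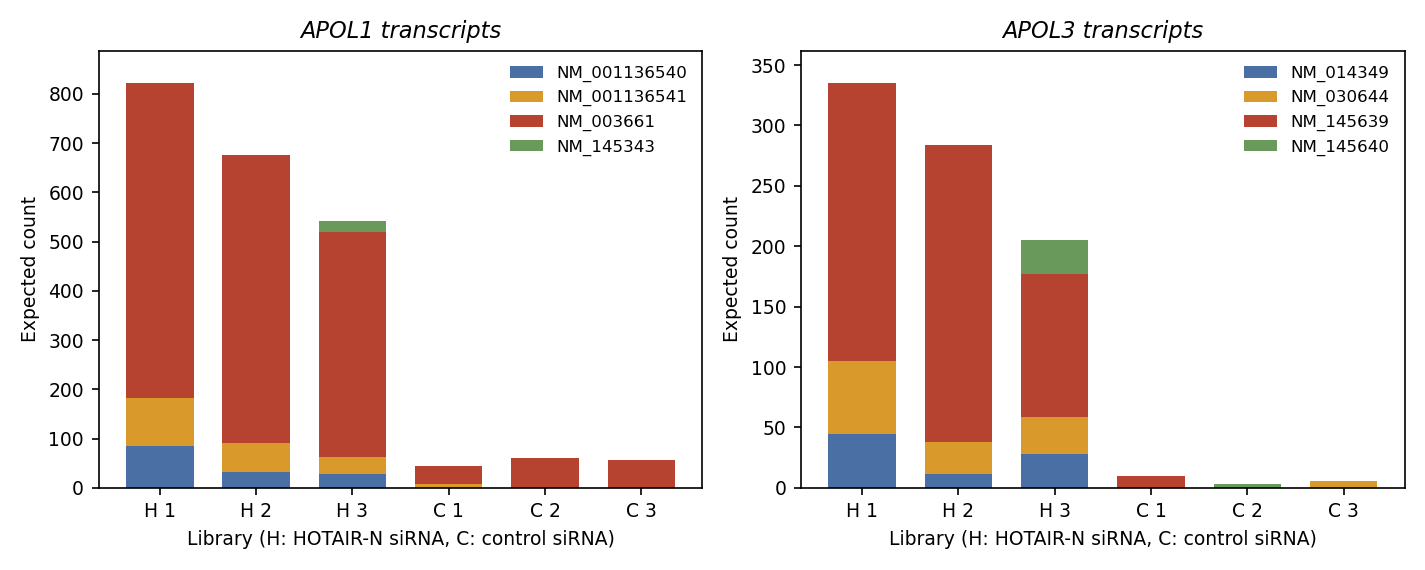
Expected counts of the annotated transcripts of APOL1 and APOL3 with a count in at least 1 library, stacked per library (vertical axes from 0, H for HOTAIR-N siRNA and C for control siRNA, replicates 1 to 3). NM_003661 makes up most of each APOL1 bar, and NM_145639 is the largest part of each APOL3 bar of the HOTAIR-N siRNA, at 58.78% to 87.37% by level.

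The genes around the APOL genes had fold changes in both directions. In RefSeq the chromosomal order runs from APOL6 and APOL5 over RBFOX2 to APOL3, APOL4, APOL2 and APOL1, followed by MYH9. Of the 15 other protein-coding genes between HMGXB4 and NCF4, 12 could be tested. In the edgeR quasi-likelihood fit 4 of these rose, 2 fell and 6 were not called, beside 71.1% of all genes called in either direction. Their log2 fold changes ran from -0.87 to 0.67 with a median of -0.03, where the median of all tested genes was 0.02.

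RBFOX2, a splicing regulator within the cluster, rose by 1.21-fold to 67.9 ± 0.793 CPM, against 55.9 ± 2.87 CPM with the control siRNA (SD, n = 3 each, edgeR quasi-likelihood adjusted p = 0.00044). MYH9, the non-muscle myosin heavy chain gene next to APOL1, had 596.9 ± 37.2 CPM with the HOTAIR-N siRNA and 557.8 ± 32.6 CPM with the control siRNA (SD, n = 3 each). Its log2 fold change of 0.1 had an interval of -0.01 to 0.2 and was not called, with an adjusted p of 0.12 in edgeR's quasi-likelihood fit. It was called without HOTAIR-N siRNA replicate 3 (log2 fold change 0.14 and edgeR adjusted p = 0.033), without that library and control siRNA replicate 2 (0.08 and edgeR adjusted p = 0.019) and with library totals in place of TMM (0.2 and edgeR adjusted p = 0.0078). MB, the myoglobin gene next to APOL6, had a log2 fold change of -0.02 (SE 0.08).

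Farther out, the heme oxygenase gene HMOX1 rose 1.59-fold, TOM1 1.32-fold and EIF3D 1.19-fold. HMGXB4 fell to 74.8% of control and the replication helicase gene MCM5 to 78.4%. RASD2, TXN2, FOXRED2 and IFT27 had log2 fold changes of -0.87, -0.03, -0.1 and -0.16 and were not called, at edgeR adjusted p = 0.053, 0.49, 0.053 and 0.053. TXN2 was not called in any of 13 alternatives. FOXRED2 was not called in 7 of 13, IFT27 in 11 of 13 and RASD2 in 11 of 12, and they were called lower in the rest. CACNG2, PVALB and NCF4 were too low to be tested. The largest rise among the neighbours, that of HMOX1, was below the smallest fold change among the tested APOL genes, the 3.11-fold of APOL2. Because the APOL genes were chosen on this contrast, nothing is read from that difference.

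**Figure D4:**
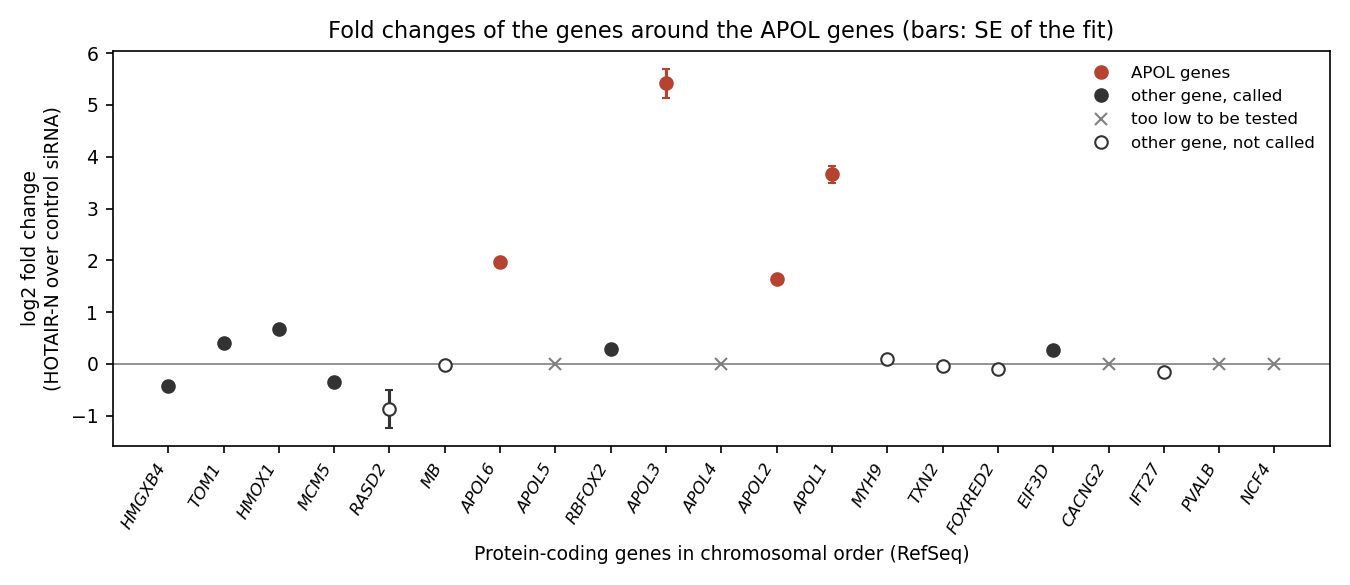
log2 fold change, HOTAIR-N siRNA over control siRNA (vertical axis, bars are the SE), of the 21 protein-coding genes from HMGXB4 to NCF4 in chromosomal order, not to distance, with APOL genes in red, other called genes filled, genes not called open and genes too low to be tested as crosses at 0. The 4 tested APOL genes, which were chosen on this contrast, stand at 1.64 to 5.42, and the other tested genes between -0.87 and 0.67.

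Among the ligands known to induce APOL genes, interferon transcripts were scarce. Of the 21 interferon genes listed, none was high enough to be tested. IFNB1 had 9, 3 and 8 expected counts with the HOTAIR-N siRNA and 1, 1 and 0 with the control siRNA, and IFNL1 had 21, 12 and 7 against 3, 4 and 8 with the control siRNA. IFNG had 0 counts in all 6 libraries. The tumor necrosis factor gene TNF rose 3.23-fold to 7.58 ± 0.288 CPM, against 2.34 ± 0.265 CPM with the control siRNA (SD, n = 3 each, edgeR quasi-likelihood adjusted p = 4e-08).

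Among genes of interferon receptors and signalling, 23 could be tested, of which 15 rose, 6 fell and 2 were not called, with a median log2 fold change of 0.73. Over all tested genes 36.2% were called higher and 71.1% in either direction, with a median of 0.02. The rises included transcription factors through which APOL genes are known to be induced. A part of these factors, or of TNF, in the APOL levels was not tested. IRF9 had 59.7 ± 5.41 CPM with the HOTAIR-N siRNA and 19.1 ± 0.391 CPM with the control siRNA (SD, n = 3 each), or 3.13-fold. STAT2 rose 2.55-fold, IRF1 2.8-fold and IRF2 1.86-fold. USP18, a feedback inhibitor at the type I interferon receptor, rose 3.67-fold, and NLRC5, the transactivator of MHC class I genes, rose 5.94-fold.

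The kinase genes JAK1 and JAK2 and the transcription factor gene IRF3 went the other way. They fell to 65.4%, 83.1% and 77% of control. JAK2 was called lower in only 8 of 13 alternatives, against 13 of 13 for JAK1 and IRF3. The receptor chains, named after their values were seen, were split. IFNAR1, IFNGR1 and IL10RB rose 1.26-fold, 1.66-fold and 1.48-fold, while IFNAR2, IFNGR2 and IFNLR1 fell to 78.9%, 68% and 75.4% of control. HOTAIR-N siRNA replicate 3 was again lowest in its group for IRF9 and IRF1, at 53.5 and 13.3 CPM, but not for every gene of this list. IRF2 was lowest in HOTAIR-N siRNA replicate 2, at 24.9 CPM. IFNAR1 and IFNGR1 were highest of their group in replicate 3, at 128.6 and 54.3 CPM.

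The guanylate-binding proteins are GTPases that coat cytosolic bacteria. All 4 tested of the 7 listed rose, beside 36.2% of all tested genes called higher. Their log2 fold changes ran from 2.75 to 4.21 with a median of 3.05. APOL2 and APOL6, at 1.64 and 1.96, lay below all of them and APOL3, at 5.42, above. GBP1 had 35.5 ± 4.93 CPM with the HOTAIR-N siRNA and 1.92 ± 0.187 CPM with the control siRNA (SD, n = 3 each, edgeR quasi-likelihood adjusted p = 1.2e-10). GBP2, GBP3 and GBP4 rose 6.78-fold, 10.2-fold and 6.73-fold. GBP5, GBP6 and GBP7 were too low to be tested, with 18, 2 and 3 counts over the HOTAIR-N siRNA libraries and 4, 1 and 1 over the control libraries.

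Genes whose products are reported to bind or act with APOL proteins had log2 fold changes of -0.56 to 0.44. Of 6 tested, 2 rose, 2 fell and 2 were not called (median log2 fold change 0.07), a share of calls near the 71.1% of all tested genes called in either direction. PI4KB, a Golgi lipid kinase reported to be regulated through APOL3, rose 1.36-fold. Its activator NCS1 fell to 67.7% of control (77.4 ± 3.06 CPM with the HOTAIR-N siRNA and 114.3 ± 5.09 CPM with the control siRNA, SD, n = 3 each, edgeR quasi-likelihood adjusted p = 9.4e-07). The membrane fusion gene VAMP8 rose 1.16-fold and the Golgi GTPase gene ARF1 fell to 82.4% of control. PHB2 and MYH9 were not called, and CALN1 had 2 counts over the HOTAIR-N siRNA libraries and 3 over the control libraries.

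APOL1 circulates with apolipoprotein A-I and haptoglobin-related protein, but neither of their genes was expressed here. APOA1 and HPR had 1 and 0 counts over the HOTAIR-N siRNA libraries and 0 and 1 over the control libraries. Of 28 other apolipoprotein and lipoprotein genes, 14 could be tested, and 11 of them rose, 1 fell and 2 were not called, with a median log2 fold change of 0.43, beside 36.2% of all tested genes called higher. The cholesterol exporter gene ABCA1 rose 4.09-fold, to 6.18 ± 0.454 CPM against 1.51 ± 0.121 CPM with the control siRNA (SD, n = 3 each), and ABCG1 rose 2.01-fold. Clusterin (CLU), a secreted chaperone, rose 1.72-fold and APOM 1.73-fold, PLTP 1.7-fold, LRP1 1.42-fold, APOOL 1.28-fold and the HDL receptor gene SCARB1 1.23-fold. The smallest called rise, that of APOE at 1.12-fold (edgeR adjusted p = 0.044), was not called in 9 of 13 alternatives, at edgeR or DESeq2 adjusted p = 0.052 to 0.18.

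**Figure D5:**
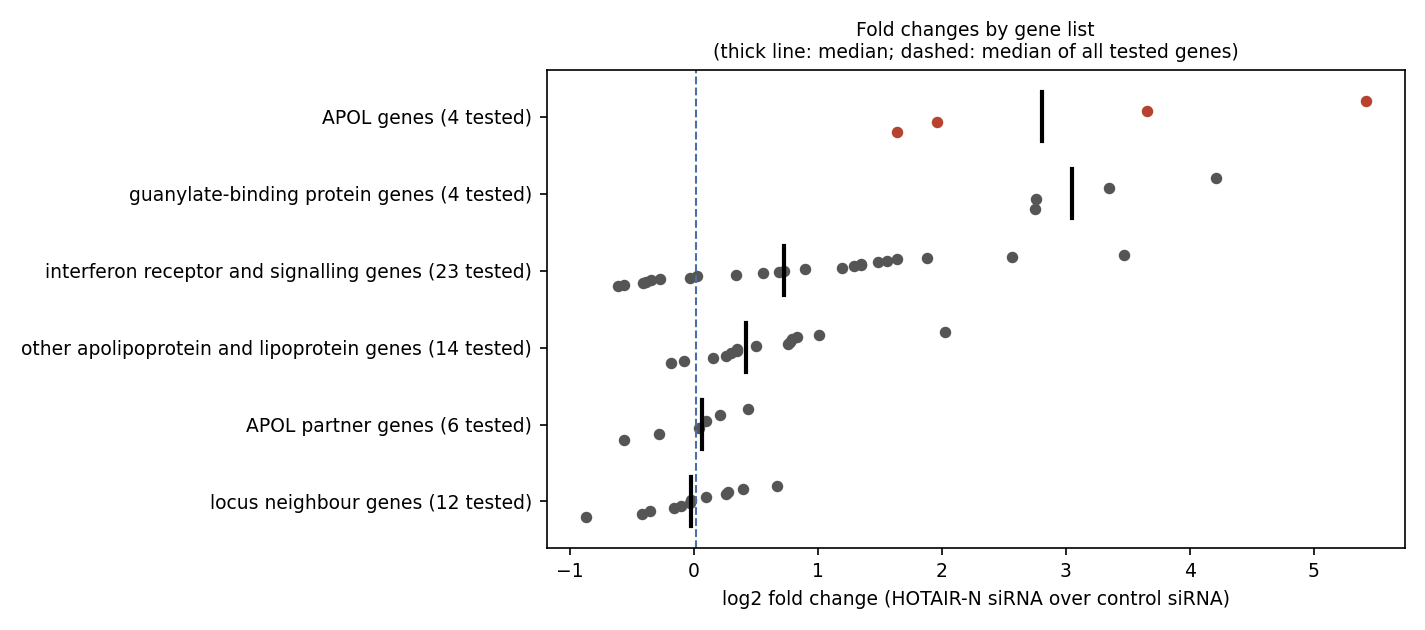
log2 fold change, HOTAIR-N siRNA over control siRNA (horizontal axis), of each tested gene in 6 gene lists (rows), with APOL genes in red, other genes in grey, list medians as thick lines and the median of all tested genes, 0.02, as a dashed line. The APOL genes, which were chosen on this contrast, and the guanylate-binding protein genes all lie above 1.6. The APOL partner genes and locus neighbours have medians of 0.07 and -0.03.

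For each tested member, the 3 genes with the most similar profile over the 6 libraries were sought. The search covered 12892 other genes and left out symbols that start with LOC, LINC, MIR or SNO. Similarity was the root mean square difference of log2 CPM after the control mean of each gene was subtracted. For APOL2 the 3 genes were IRF9, USP2 and PROCR, at 0.04, 0.05 and 0.05. For APOL6 they were NOS3, DDX58 and S100A8, at 0.05, 0.06 and 0.06. For APOL1 they were TMEM198, SAMD9L and IFIT1, at 0.15, 0.16 and 0.16. APOL3 had no close match, with SYP at 0.36, IFI44L at 0.54 and TRIM22 at 0.65. Its fold change was the 5th highest of all tested genes and rests on 19 counts over the control libraries. The measure is set mainly by the size of the fold change, and over 6 libraries of 2 groups it says little about variation within a group.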

How the data were processed

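Stranded total RNA libraries were made with a kit that removes ribosomal RNA, per the labels' protocols. The submitters' processing notes name STAR 2.6.0c, RSEM 1.3.0 and build hg19 but no settings. The authors deposited per gene and per RefSeq transcript expected counts, TPM, FPKM (not used here) and, per transcript, the percent of its gene. Whether counting used the strand is not given here in the sources.

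Expected counts were rounded, filtered with edgeR's filterByExpr (minimum count 10, minimum total 15), scaled by TMM and then compared across all genes by the quasi-likelihood test of edgeR 4.0.16 (with limma 3.58.1 and R 4.3.3), HOTAIR-N siRNA over control siRNA, with Benjamini-Hochberg adjustment and a threshold of 0.05. Fold changes and calls come from this fit, the SE is the size of the log2 fold change over the square root of its F value, and intervals are the log2 fold change ± 1.96 SE. Transcripts were fitted likewise. CPM are TMM-scaled, and log2 CPM for profile similarity used a prior count of 2. No pair of libraries agreed within sampling noise. P-values measure the spread between transfections of one cell line.

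The members and lists were chosen with earlier results of these data known. Named genes are the family, the genes of the locus, up to 8 called members of each list by smallest p, and the 3 genes of most similar profile among those whose average log2 CPM reached 0. Some were named after their values were seen: the receptor chains, JAK2, IRF3, ESR1, CDH1, the scarce interferon genes, and list members that were not called or not tested. Some genes that this rule names, or that were counted in a list, are not reported here. The steps were tested on simulated counts. Alternatives were DESeq2 size factors, library totals, DESeq2 1.42.0, other filters, a replicate block, left-out libraries and log2(TPM + 0.1). Locus order comes from RefSeq on GRCh38.p14, and its coordinates were not used with the hg19 files.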

Additional observations from a re-analysis of the deposited data

How the results depend on the processing

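The 4 tested APOL genes were run under 14 alternatives each. They were chosen on this contrast and their groups do not overlap, so nothing is read from the sign they kept. The log2 fold changes ranged from 3.53 to 3.9 for APOL1 and 1.61 to 1.74 for APOL2. For APOL3 the range was 4.83 to 5.87, and for APOL6 it was 1.87 to 2.06. The 4.83 of APOL3 comes from log2(TPM + 0.1), where the pseudocount is close to its control level. With library totals alone the median of all genes moved by 0.1, 60.3% of called genes were higher against 51% in the main fit, and APOL2 stood at 1.74. Under that scaling 4 APOL partner genes rose and 0 apolipoprotein genes fell. With DESeq2 size factors, and with both libraries that stood apart left out (chosen after the data were seen), 4 locus genes fell in place of 2. Of the interferon ligand and TNF list, 1 gene rose in the main fit, 4 without a filter, 2 with DESeq2 and 2 without those 2 libraries, and 1 to 2 when single libraries were left out. The transcript NM_145637 of APOL2 had a log2 fold change of 0.72 with SE 1.79 in the main fit. Without HOTAIR-N siRNA replicate 1 it was -0.18, and it ranged from -0.18 to 1.3 when single libraries were left out. The cause of this sign change was not tested. Transcripts with counts in a single control library moved further. NM_145639 of APOL3 ranged from 5.31 to 10.63, NM_030644 of APOL3 from 3.64 to 8.27 and NM_001136541 of APOL1 from 3.97 to 8.98. Same-numbered libraries did not deviate together (r = -0.21 to -0.04 across genes), so the numbers were not taken as pairs. With a replicate block 10010 genes were called, against 10605, and the APOL log2 fold changes were 3.65, 1.64, 5.41 and 1.96 for APOL1, APOL2, APOL3 and APOL6. Depth limits APOL4, APOL5, the interferon ligands and the APOL3 transcript shares in the control libraries.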
